A study of Mus musculus with 9 samples.

Results

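The HCN channels were represented by Hcn2, Hcn3 and Hcn4, which are 3 of 21809 genes in the mRNA table of the trigeminal ganglion (TG). They were taken as members of a channel family, and the rule that chose them used no measured value, although earlier results of these data were known when it was made. The value of each gene was the sum of FPKM (fragments per kilobase, a level that takes account of transcript length and library size) over its transcripts, which were 7 in all for the 3 genes. Testing needed an average of 0.1 FPKM or more, and all 3 genes were among the 16096 gene sums that had it.

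The TG of male WT mice of the C57BL/6 strain, 8 weeks of age, was taken after unilateral injection of 10 µl of saline or of complete Freund's adjuvant (CFA, 5 mg/ml, an oil with killed mycobacteria that causes lasting local inflammation) into the temporomandibular joint (TMJ) under isoflurane. The 9 libraries fell into saline (replicates 1 to 3), day 3 after CFA (CFA3D, replicates 1 to 3) and day 6 after CFA (CFA6D, replicates 4 to 6), and the saline libraries are labelled as day 3, so CFA6D had no saline group of its own day. Each library pooled tissue from 3 mice, so n = 3 pools a group, and values after ± are the SD between pools, while SEs and 95% intervals come from the fitted model. The TG holds the cell bodies of the sensory neurons of the face and jaw together with satellite glia and Schwann cells, and in such bulk RNA fewer cells of a type and less RNA per cell cannot be told apart.

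HCN channels are cation channels of the plasma membrane that open when the cell hyperpolarizes and carry the inward current known as Ih. Cyclic AMP binds to a domain in their C-terminal part and shifts opening to less negative voltages, so receptors that raise cyclic AMP can speed up repetitive firing. In sensory neurons HCN2 is best known for its part in inflammatory and neuropathic pain, HCN4 is the main pacemaker subunit of the heart and opens slowly, and HCN3 responds little to cyclic AMP.

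The genes lie on different chromosomes (GRCm38). Hcn2 (ENSMUSG00000020331) spans chr10:79716634-79736108 on the plus strand, Hcn3 (ENSMUSG00000028051) spans chr3:89146074-89160196 on the minus strand, and Hcn4 (ENSMUSG00000032338) spans chr9:58823412-58863175 on the plus strand. The main transcript of each has 8 exons. The pore lies in exon 4, and 81 coding bases of it are shown because they are the stretch that the 3 channels have in common by function and show how far their RNAs can be told apart by sequence. The sequences are from the RefSeq genome of GRCm38.p6, at chr10:79728923-79729003 (plus strand), chr3:89150970-89151050 (minus strand) and chr9:58855555-58855635 (plus strand), each read 5′ to 3′ along its gene. Capitals mark the codons of the glycine-tyrosine-glycine signature of the selectivity filter.
Hcn2: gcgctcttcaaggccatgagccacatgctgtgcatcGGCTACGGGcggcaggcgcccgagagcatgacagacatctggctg
Hcn3: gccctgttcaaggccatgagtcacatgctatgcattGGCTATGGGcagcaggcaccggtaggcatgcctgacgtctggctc
Hcn4: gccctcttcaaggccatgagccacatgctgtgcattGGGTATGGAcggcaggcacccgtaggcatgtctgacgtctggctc

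The signature starts at codon 402 of Hcn2, codon 312 of Hcn3 and codon 480 of Hcn4, and each gene spells it with a different set of codons. Over the 81 bases, Hcn3 and Hcn4 differed at 8 positions, Hcn2 and Hcn4 at 13 and Hcn2 and Hcn3 at 16. Exons 3 to 7 have the same lengths in all 3 genes, 934 bases in all, and include the pore. Over these exons the base identity was 78.9% between Hcn2 and Hcn3, 81.8% between Hcn3 and Hcn4 and 83.4% between Hcn2 and Hcn4. Exon 6 set Hcn3 apart, with 72.6% identity to Hcn2 and 71.0% to Hcn4, against 85.1% between Hcn2 and Hcn4. The longest run of identical bases in the main transcripts of any pair was 32 to 33 bases. The coding sequences are 2589 bases long in Hcn2, 2337 in Hcn3 and 3603 in Hcn4.

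**Figure D1:**
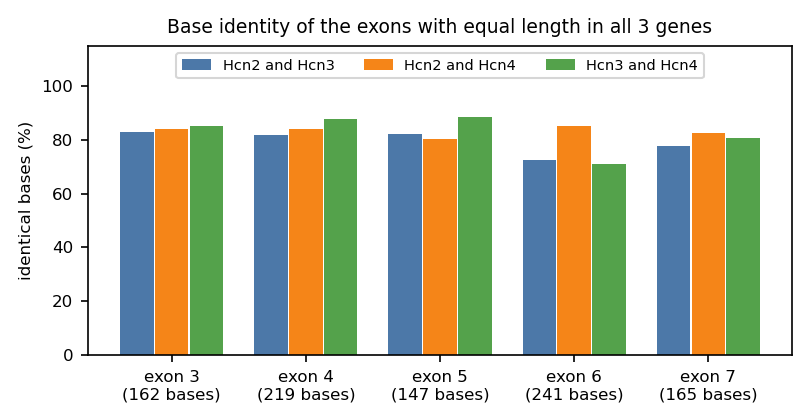
Identical bases (%) in each of the exons 3 to 7, which have equal lengths in Hcn2, Hcn3 and Hcn4, for the 3 pairs of genes. In exon 6 the pairs with Hcn3 are at 72.6% and 71.0% and the pair without it is at 85.1%.

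The depth behind the values was estimated at 30.1 to 42.3 M read pairs a library, so that a single pair on 1 kb of transcript stood for 0.0236 to 0.0332 FPKM. Markers of neurons were high in every library, with 12 of 12 tested and a summed level of 1890 to 2767 FPKM, led by Tubb3. Some libraries stood apart. The summed level of pituitary markers was 10672 FPKM in saline replicate 3. It was 1116 in CFA6D replicate 4, 409 in CFA6D replicate 5 and at most 99.8 in the others. The pituitary marker Pomc was at 245 FPKM in saline replicate 3, 282 in CFA6D replicate 4 and 343 in CFA6D replicate 5. Adipocyte markers were highest in saline replicate 2, at 139.5 FPKM. CFA6D replicate 6 lay at 66.3 on the first principal component, the other libraries at -21.4 to 3.82. Calls that change without saline replicate 3 and CFA6D replicate 6 are given below.

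Hcn2 was the most abundant of the 3 in every library. Its level was 24.7, 20.3 and 33.4 FPKM in saline replicates 1 to 3, 26.5, 27.9 and 29.3 in CFA3D replicates 1 to 3, and 29.7, 26.5 and 33.2 in CFA6D replicates 4 to 6. The highest value of all and the lowest were both in saline, so that every CFA library lay within the range of the saline group. The group means were 26.2 ± 6.66, 27.9 ± 1.38 and 29.8 ± 3.38 FPKM. Averaged over all libraries, 28.0 FPKM placed Hcn2 above 92.4% of all gene sums.

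Hcn3 was at 3.76, 3.63 and 2.82 FPKM in saline, 4.28, 3.72 and 3.87 in CFA3D, and 4.95, 3.08 and 4.53 in CFA6D. Saline replicate 3, which had the highest Hcn2, had the lowest Hcn3, and CFA6D replicate 5 fell among the saline values. The group means were 3.40 ± 0.508, 3.96 ± 0.293 and 4.19 ± 0.980 FPKM, and the mean over all libraries (3.85 FPKM) was above 55.2% of gene sums.

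Hcn4 was at 2.81, 3.21 and 2.91 FPKM in saline, 4.46, 6.55 and 2.99 in CFA3D, and 3.60, 3.54 and 3.33 in CFA6D. The saline and the CFA6D values were each close together, whereas the CFA3D values were far apart, with replicate 2 the highest of all libraries and replicate 3 within the saline range. The group means were 2.98 ± 0.209, 4.67 ± 1.79 and 3.49 ± 0.143 FPKM. The mean over all libraries, 3.71 FPKM, was above 54.7% of gene sums.

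Ordered by level, Hcn2 stood first in 9 of 9 libraries. Its FPKM was 5.60 to 11.8 times that of Hcn3 and 4.27 to 11.5 times that of Hcn4. Hcn3 and Hcn4 had no fixed order, since the ratio of Hcn3 to Hcn4 ran from 0.568 to 1.38 and was above 1 in 5 of 9 libraries. The spread between libraries, as the highest over the lowest value, was 1.64 for Hcn2, 1.75 for Hcn3 and 2.33 for Hcn4.

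**Figure D2:**
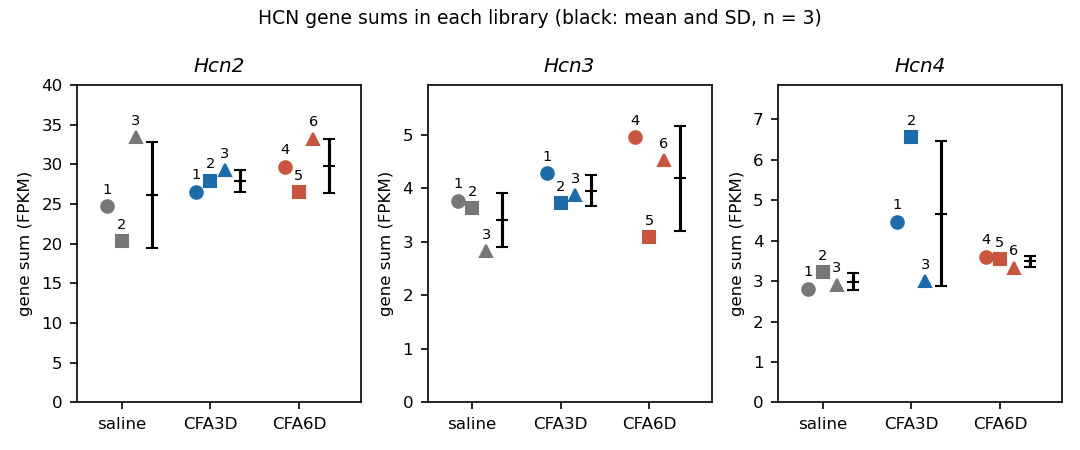
Gene sums of Hcn2, Hcn3 and Hcn4 (FPKM, each panel with its own scale from 0) in the libraries of saline, CFA3D and CFA6D, numbered by replicate, with mean and SD in black (n = 3 pools). The saline values of Hcn2 enclose all CFA values, and CFA3D replicate 2 carries the highest Hcn4, at 6.55 FPKM.

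The first comparison asked which genes differed between the TG 3 days after CFA and the saline TG. Of the HCN channels, Hcn4 was higher on CFA3D, by 0.56 on the log2(FPKM + 0.1) scale (SE 0.23), which is 1.48-fold with a 95% interval of 1.03 to 2.13. It passed the unadjusted cutoff of p under 0.05 in limma, and its Benjamini-Hochberg adjusted p over all gene sums was 0.997. The groups overlapped, as CFA3D replicate 3 was below saline replicate 2. Hcn2 differed by 0.12 (95% interval -0.24 to 0.49) and Hcn3 by 0.22 (-0.20 to 0.64), neither past the cutoff, so changes within these intervals could not be told from none.

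With Hcn4, 1 of 3 members passed the unadjusted cutoff on CFA3D, against a background of 4.45% of all gene sums, 3.65% higher and 0.801% lower. After adjustment 0 of the 16096 gene sums passed in limma, where 717 did before it. The call was lost when any 1 of 6 of the 9 libraries was left out. Without CFA3D replicate 2 the difference was 0.29 (SE 0.18). For the other 5 of these libraries it was 0.52 without saline replicate 1, 0.62 without saline replicate 2, 0.55 without saline replicate 3, and 0.56 without CFA3D replicate 1 and without CFA6D replicate 5. It was also lost without saline replicate 3 and CFA6D replicate 6 together (0.55, SE 0.28).

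On CFA6D none of the 3 HCN genes passed the cutoff against saline. Hcn4 differed by 0.22 (SE 0.23, 95% interval -0.30 to 0.75), Hcn3 by 0.27 (-0.15 to 0.70) and Hcn2 by 0.21 (-0.15 to 0.58), with adjusted p-values of 0.645 to 0.765 in limma. The fit uses a single estimate of the spread for all groups, including CFA3D. On the log2 scale the SD of Hcn4 was 0.097 in saline, 0.058 in CFA6D and 0.55 in CFA3D. With only the saline and CFA6D libraries fitted, the SE of its difference was 0.12, and Hcn4 still did not pass. The background was higher on this day, as 11.1% of all gene sums passed, 8.22% higher and 2.85% lower, with 1781 past the unadjusted cutoff and 0 after adjustment. For Hcn4 all CFA6D libraries (3.33 to 3.60 FPKM) lay above all saline libraries (2.81 to 3.21 FPKM). An absence of overlap was found for 16.2% of all gene sums in this comparison, with 10.7% higher. The exact 2-sided permutation p of Hcn4 was 0.1, the smallest that 3 against 3 libraries can give.

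Whether Hcn2 passed depended on saline replicate 3, the library with the highest sum of pituitary markers. Without it Hcn2 passed the unadjusted cutoff and was higher by 0.31 (SE 0.12) on CFA3D and by 0.40 (SE 0.12) on CFA6D. It also passed without saline replicate 3 and CFA6D replicate 6 together, with 0.31 (SE 0.11) and 0.32 (SE 0.12). The smallest of the 4 adjusted p-values in limma was 0.280. Without saline replicate 2, the library with the highest sums of adipocyte and skeletal muscle markers, the CFA3D difference turned to -0.043. For Hcn3 on CFA6D the library that mattered was CFA6D replicate 5, without which the difference was 0.48 (SE 0.16) and passed the unadjusted cutoff (adjusted p = 0.346, limma). The part of the other tissue in these values was not tested.

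Between the CFA days, Hcn2 differed by 0.09 (95% interval -0.28 to 0.45), Hcn3 by 0.05 (-0.37 to 0.48) and Hcn4 by -0.34 (-0.87 to 0.18), CFA6D relative to CFA3D. Of the 3, 0 passed, where 7.39% of all gene sums did (3.06% higher and 4.34% lower, 0 after adjustment), and all 3 overlapped between the days, where 16.7% of gene sums did not overlap. Without CFA3D replicate 3, Hcn4 was lower on CFA6D by -0.62 on the log2 scale (SE 0.17) and passed the unadjusted cutoff (adjusted p = 0.721, limma), and without CFA3D replicate 2 the difference was -0.067. Hence the Hcn4 difference between the days depended on which of the widely spread CFA3D libraries was kept. Taken over the 3 groups at once, an exact permutation test of the 9 libraries gave p = 0.582 for Hcn2, 0.411 for Hcn3 and 0.15 for Hcn4. The CFA3D and CFA6D comparisons share the saline libraries and are not independent.

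**Figure D3:**
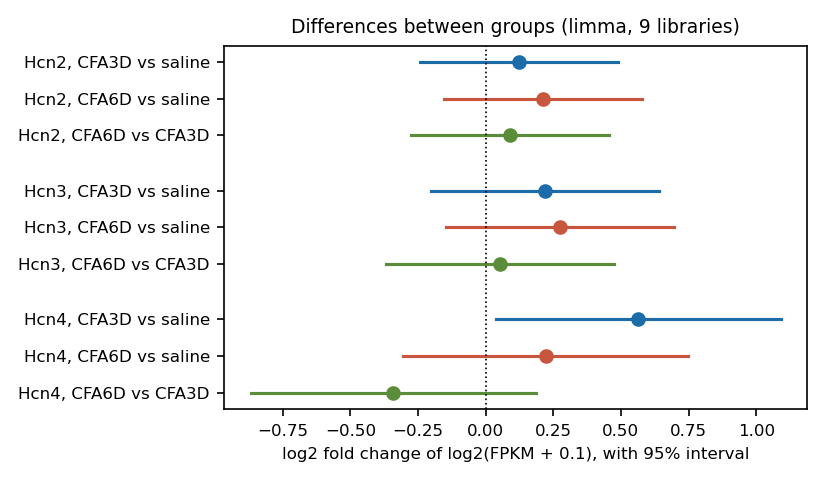
Difference in log2(FPKM + 0.1) with its 95% interval for Hcn2, Hcn3 and Hcn4 in the 3 comparisons (limma over 9 libraries). The interval of Hcn4 on CFA3D, 0.04 to 1.09, is the one that leaves out 0.

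The composition of the HCN transcript pool was then compared. Hcn2 made up 79.0, 74.8 and 85.4% of the summed HCN level in saline, 75.2, 73.1 and 81.0% in CFA3D and 77.7, 80.0 and 80.9% in CFA6D. Its share never fell below 73.1%, and the groups overlapped. The mean shares were 79.7 ± 5.31%, 76.5 ± 4.10% and 79.5 ± 1.66%, with an exact permutation p over the 3 groups of 0.55. The share of Hcn4 ran from 7.43% in saline replicate 3 to 17.1% in CFA3D replicate 2 (exact permutation p = 0.368), and that of Hcn3 from 7.21 to 13.4% (p = 0.993, exact). The summed level of the 3 genes was 32.5 ± 6.08 FPKM in saline, 36.5 ± 1.499 in CFA3D and 37.5 ± 4.05 in CFA6D, with an exact permutation p of 0.393.

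Each HCN gene was carried by a single coding transcript. All of the Hcn2 level came from ENSMUST00000099513 (3195 bases), with the equivalent of 1953 to 4301 read pairs a library. The other Hcn2 transcript, ENSMUST00000020581, which has an intron within the last exon, was listed at 0 in 9 of 9 libraries. Without saline replicate 3 and CFA6D replicate 6, ENSMUST00000099513 passed on CFA3D with 0.31 (SE 0.12, adjusted p = 0.957, limma), as the gene sum did, but not on CFA6D (0.32, SE 0.14). Hcn4 had ENSMUST00000034889 (6118 bases) alone, with 530 to 1588 read pairs. In the fit over 66562 transcripts, the Hcn4 difference on CFA3D was again 0.56, with a 95% interval of -0.0021 to 1.13 and an adjusted p of 0.989 in limma, just outside the cutoff that the gene sum passed.

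Hcn3 was split over more transcripts. The coding transcript (ENSMUST00000029686, 4002 bases) was at 2.60, 3.08 and 2.22 FPKM in saline, 3.14, 3.42 and 3.24 in CFA3D, and 3.82, 2.79 and 3.67 in CFA6D. All CFA3D libraries lay above all saline libraries, and CFA6D replicate 5 fell within the saline range. The differences from saline were 0.31 on CFA3D (95% interval -0.09 to 0.71) and 0.37 on CFA6D (-0.03 to 0.77), neither past the cutoff (adjusted p = 0.989 and 0.757, limma). Of all transcripts, 9.48% did not overlap between CFA3D and saline, with 5.79% higher, and 4.68% passed the unadjusted cutoff, while 6.81% did so on CFA6D.

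The coding transcript made up 69.1 to 92.0% of the Hcn3 level. The remainder was RNA that is not annotated as coding. A transcript of 909 bases with a retained intron, ENSMUST00000132156, was detected in every library at 0.291 to 1.01 FPKM, or 7.99 to 23.6% of the gene sum, highest in CFA3D replicate 1. Its differences from saline were -0.20 on CFA3D (SE 0.44) and -0.18 on CFA6D (SE 0.44), neither past the cutoff. ENSMUST00000133368, a processed transcript, was listed at 0 in 5 of 9 libraries and was highest in saline replicate 1, at 0.443 FPKM. ENSMUST00000127654, another retained intron, was listed above 0 only in CFA6D replicate 4, at 0.365 FPKM, which was too low over the libraries to be tested. The libraries were made from total RNA depleted of ribosomal RNA, which also holds unspliced RNA. How much of the retained intron values came from it was not tested.

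**Figure D4:**
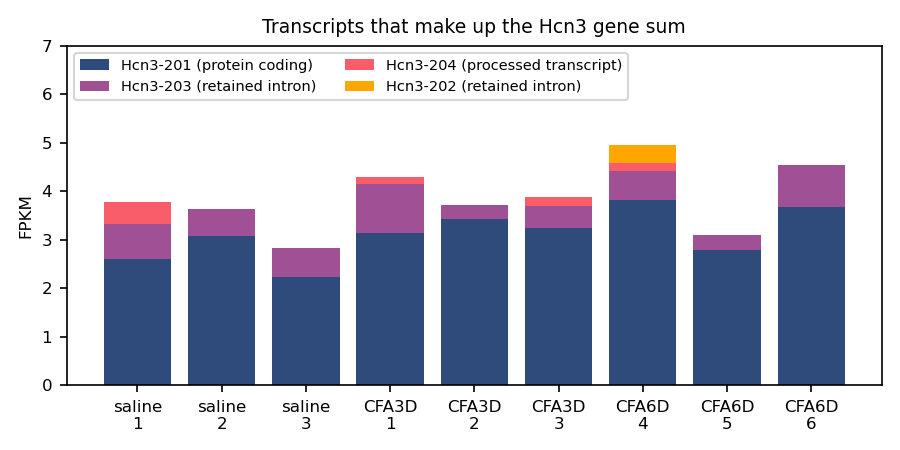
FPKM of the Hcn3 transcripts in each library, stacked to the gene sum. The coding transcript (dark blue) makes up 69.1 to 92.0% of each bar, and the longer retained intron transcript (purple) appears in all 9 libraries.

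The genes next to the HCN genes were read for overlap. Hcn3 overlaps Pklr, a pyruvate kinase gene of liver and red cells on the opposite strand, by 711 bases at the 3′ ends. Pklr was at 0 to 0.418 FPKM and was too low to be tested, against 2.82 to 4.95 FPKM for Hcn3. Whether the authors counted reads by strand is not given in the sources used here. Hcn2 ends 14 bases from Polrmt, the mitochondrial RNA polymerase gene, which was at 4.37 to 6.39 FPKM. On the other side of Hcn2, at a distance of 4664 bases, lies Bsg, the gene of basigin, at 142.7, 145.9 and 185.1 FPKM in saline, 129.8, 136.2 and 129.9 in CFA3D and 121.9, 118.5 and 116.7 in CFA6D. Bsg was lower in every CFA library than in every saline library, by -0.25 on CFA3D and -0.40 on CFA6D, and passed the unadjusted cutoff on both days, where 2.11% and 5.5% of all gene sums were lower without overlap. Its neighbour Hcn2 passed on neither day. Of the other neighbours, Clk2 (8.09 to 10.6 FPKM) is nearest to Hcn3 on the right and Gm29704, a pseudogene listed above 0 in saline replicate 1 alone, on the left. Hcn4 stands between Rec114 (1.05 to 2.08 FPKM) and Neo1 (7.32 to 12.9 FPKM).

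The signalling around HCN channels was examined through 64 listed genes for partner proteins and for the making, breaking and reading of cyclic AMP, of which 59 were tested. On CFA3D 4 were higher and 0 lower at an unadjusted p under 0.05, and on CFA6D 10 were higher and 0 lower, beside the 3.65% and 8.22% of all gene sums that were higher. With values brought to the same distribution by quantile normalization, the counts were 1 and 6 higher and 0 lower, where 1.81% and 6.15% of all gene sums were higher. Under that scaling the share of all calls that were higher moved from 82.0 to 58.3% on CFA3D and from 74.3 to 50.1% on CFA6D. The median difference of the listed genes was 0.05 on CFA3D and 0.07 on CFA6D, beside 0.05 and 0.03 for all gene sums. After adjustment 0 of the 59 passed.

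Without saline replicate 3 and CFA6D replicate 6, 4 listed genes were higher and 1 lower on CFA3D, 6 higher and 1 lower on CFA6D, and 0 higher and 1 lower between the CFA days, where 3 had been higher. In that setting 2.65% of all gene sums were higher and 1.78% lower on CFA3D, and 5.49% and 4.05% on CFA6D. Between the CFA days 2.60% were higher and 4.45% lower, beside 3.06% and 4.34% in the fit over all libraries. Vapb, Prkaca, Gnal, Gnai2 and Gnao1 kept their calls on CFA6D, and Prkaca, Gnal and Gnao1 theirs on CFA3D. Calls were lost for Pde4c on CFA3D, for Adcy9, Pde2a, Pde11a, Prkar1b and Gnai1 on CFA6D, and for Adcy3, Pde2a and Prkaca between the days. Calls were gained for Gnai2 on CFA3D (0.25), for Pde10a on CFA6D (0.57), for Kctd3 between the days (-0.37), and for Prkar2b, a regulatory subunit of protein kinase A that was lower on both days (-0.34 and -0.37). Quantile normalization kept the calls of Vapb, Pde2a, Prkaca, Prkar1b, Gnal and Gnao1 on CFA6D and of Gnal alone on CFA3D.

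Among the partner proteins, Pex5l encodes TRIP8b, the auxiliary subunit that sets the traffic of HCN channels and lowers their response to cyclic AMP. It was at 38.8, 35.7 and 40.0 FPKM in saline, 39.9, 35.7 and 37.8 in CFA3D and 47.8, 36.8 and 34.7 in CFA6D. The groups overlapped, and the differences of -0.01 and 0.05 (SE 0.12 for both) did not pass. Vapb, a membrane protein of the endoplasmic reticulum that binds HCN channels, was at 17.9, 16.6 and 17.2 FPKM in saline, 18.8, 19.5 and 19.2 in CFA3D and 22.4, 19.6 and 20.9 in CFA6D. It stood above every saline library on both days, as did 7.01% of all gene sums on CFA3D (9.13% in either direction) and 10.7% on CFA6D. It was the 1 partner of 9 tested that passed the unadjusted cutoff, on CFA6D (0.28, SE 0.07, adjusted p = 0.198, limma). Flna, the actin-binding filamin A, had the highest mean level of the list. It reached 78.2 FPKM in CFA6D replicate 6 against 35.7 to 52.3 in the other libraries, and its CFA6D difference of 0.46 (SE 0.22) did not pass. Kcne2, a small accessory subunit of potassium and HCN channels, was at 0.0477 to 0.115 FPKM, too low to be tested.

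Adenylyl cyclases make cyclic AMP, and all 10 were tested. Adcy1, the most abundant, was at 9.86, 10.4 and 11.5 FPKM in the mean of saline, CFA3D and CFA6D and did not pass. Adcy9 was higher on CFA6D by 0.25 (SE 0.11), and Adcy3 was higher on CFA6D than on CFA3D by 0.23 (SE 0.10), both at the unadjusted cutoff. Of the 16 phosphodiesterases, which break cyclic nucleotides down, Pde2a was at 16.1, 15.6 and 14.8 FPKM in saline, 15.9, 15.7 and 17.3 in CFA3D and 18.5, 18.0 and 23.4 in CFA6D. All CFA6D libraries were above all others, with 0.36 against saline (SE 0.11, adjusted p = 0.246, limma) and 0.28 against CFA3D, both past the unadjusted cutoff. Pde11a passed on CFA6D with 0.27 (SE 0.11) and Pde4c on CFA3D with 0.45 (SE 0.18). Of the cyclic nucleotide-gated channels, the nearest relatives of HCN channels, 2 of 6 could be tested, and Cngb1, the highest, had a mean of 0.274 FPKM.

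The effectors of cyclic AMP included the listed gene with the smallest p-value. Prkaca, the catalytic subunit alpha of protein kinase A, was at 42.2, 39.5 and 44.0 FPKM in saline, 46.8, 50.3 and 53.5 in CFA3D and 61.0, 53.0 and 58.6 in CFA6D. Every CFA library was above every saline library, and the CFA days overlapped. The differences were 0.26 on CFA3D (SE 0.08, adjusted p = 0.997, limma) and 0.46 on CFA6D (SE 0.08, adjusted p = 0.106), and CFA6D was above CFA3D by 0.20 (SE 0.08). All passed the unadjusted cutoff. Of its regulatory subunits, Prkar1b passed on CFA6D with 0.21 (SE 0.09), and Prkar1a, the most abundant of the list at 135.9 FPKM in saline, was at 151.8 on CFA3D and 143.9 on CFA6D without passing.

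Among the G proteins and receptors, 2 of 14 passed on CFA3D and 4 on CFA6D, all higher, beside 3.65% and 8.22% of all gene sums that were higher. Gnal, which encodes a stimulatory G protein subunit first known from olfactory neurons, was at 25.8, 23.5 and 20.2 FPKM in saline, 30.8, 30.1 and 29.1 in CFA3D and 35.6, 27.2 and 32.9 in CFA6D. It did not overlap with saline on either day and passed on both, with 0.38 (SE 0.12) and 0.46 (SE 0.12, adjusted p = 0.191, limma). Gnas, the widely expressed stimulatory subunit and the most abundant of the list, differed by -0.08 and -0.05. Subunits of the inhibitory class also passed. Gnao1 was higher on both days (0.26 and 0.39, SE 0.10 for both), and Gnai1 (0.15, SE 0.06) and Gnai2 (0.34, SE 0.13) were higher on CFA6D.

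Some markers of neurons were also higher after CFA. Of the 12 neuron-wide markers, 1 was higher on CFA3D, 5 on CFA6D and 0 lower, beside 3.65% and 8.22% of all gene sums that were higher, with summed levels of 1890 to 2397 FPKM in saline, 2266 to 2642 in CFA3D and 2349 to 2767 in CFA6D. Nociceptor markers summed to 447 to 638 FPKM in saline, 659 to 721 in CFA3D and 538 to 662 in CFA6D, and 3 of 10 were higher and 0 lower on each day. Of all gene sums, 0.801% were lower on CFA3D and 2.85% on CFA6D. Markers of large myelinated neurons summed to 1269 to 1462, 1289 to 1658 and 1451 to 1812 FPKM. Of these 10, 1 was lower on CFA3D (Cntnap2, -0.28). On CFA6D 2 were higher (Nefh, 0.34, and Nefm, 0.60) and 1 lower (Pvalb, -0.45). Markers of satellite glia summed to 1010 to 1144, 964 to 1077 and 804 to 1032 FPKM. Of these 7, 1 was lower on CFA6D (Cadm2, -0.57). Macrophage markers summed to 86.9 to 104.6 FPKM in saline, 71.8 to 129.1 in CFA3D and 49.996 to 81.2 in CFA6D, with 1 of 6 lower on CFA6D (C1qc, -0.50). Saline replicate 3, with the highest Hcn2, had the lowest sum of neuron-wide markers, but the markers of this list differed in direction. The abundant Tubb3 (462 FPKM) and Uchl1 (438) were at their lowest of all libraries there. Rbfox3 (38.9), Snap25 (227) and Syn1 (40.2) were higher there than in saline replicates 1 and 2. The part of these markers in the differences of the HCN and signalling genes was not tested.

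**Figure D5:**
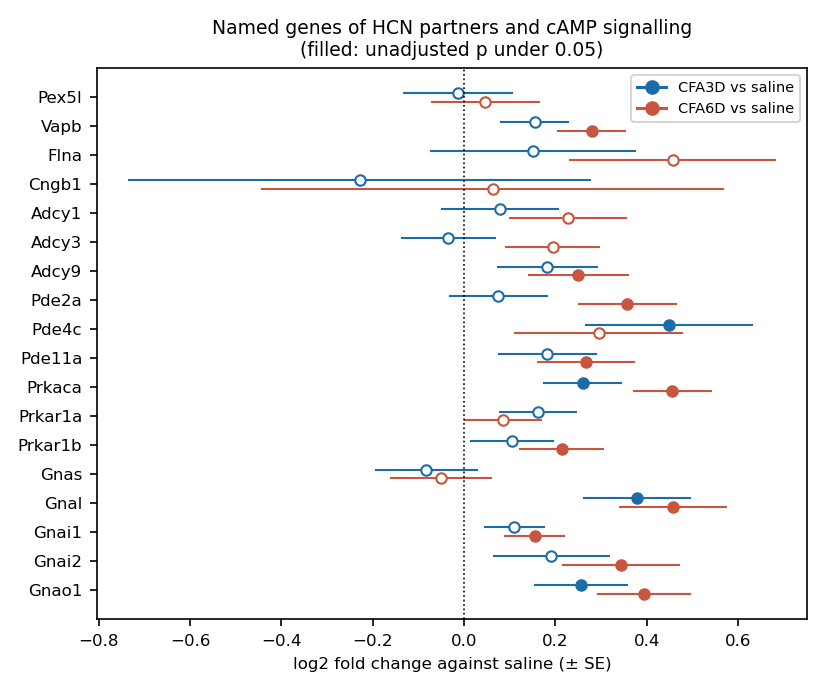
Difference from saline in log2(FPKM + 0.1), with SE, of the named genes for HCN partners, cyclic nucleotide-gated channels and cyclic AMP signalling on CFA3D and CFA6D, with filled symbols for an unadjusted limma p under 0.05. All filled symbols lie to the right of 0, with Prkaca, Gnal and Gnao1 filled on both days.

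The pattern of each HCN gene over the libraries was set beside that of 13175 genes with a mean of at least 1 FPKM, as Pearson's r of log2(FPKM + 0.1) over the 9 libraries, which share depth, dissection and group. The genes most like Hcn2 were Wasf3 (r = 0.971), Irs2 (0.970), Ampd2 (0.945), Sez6l2 (0.938) and Hivep3 (0.924). Like Hcn2, they were lowest in saline replicate 2, and Wasf3 ran from 5.56 FPKM there to 8.25 in saline replicate 3. Nearest to Hcn3 were Pcnx2 (0.950), Tomm20 (0.946), Def8 (0.934), B3gat3 (0.928) and Clec16a (0.926), and nearest to Hcn4 were Jmjd6 (0.944), Zfp329 (0.944), Akap10 (0.927), Zfp672 (0.905) and Eif3d (0.905). The HCN genes were little alike among themselves, with r of 0.07 between Hcn2 and Hcn3, -0.02 between Hcn2 and Hcn4 and 0.19 between Hcn3 and Hcn4. As the top of 13175 values over 9 libraries, these r are a description.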

How the data were processed

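Total RNA of the TG was sequenced in 9 libraries of 3 groups. The authors deposited FPKM per transcript. Their methods name depletion of ribosomal RNA, stranded libraries, Trimmomatic 0.32 and mapping to GRCm38, while the submitters' processing notes name Bowtie 0.12.2 and mm8 and the labels an Illumina TruSeq kit without strand. Hit counts and reads were, by the methods, computed in CLC Genomics Workbench, and which step gave FPKM is not given in the sources used here. All per-sample columns were used (0 left out).

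Transcripts were joined to GENCODE release 21 for mouse, of which 101539 of 102122 matched, and FPKM were summed by gene. Those averaging 0.1 FPKM or more, as gene sums and as transcripts, entered limma 3.58.1 (R 4.3.3) on the log2(FPKM + 0.1) scale, with all groups in 1 fit and trended empirical Bayes moderation. A call needed an unadjusted p under 0.05, the cutoff of the study. Adjusted p-values are Benjamini-Hochberg over everything tested. The fit was tested on simulated data. Exact permutation tests, correlations and figures used Python 3.11.15, scipy 1.17.1 and matplotlib 3.10.9. Depth was read from the spacing of low FPKM multiplied by transcript length. The tables hold no read counts, so the read pairs given are estimates. The p-values measure the spread between pools. Sequences were read from the RefSeq genome of GRCm38.p6 at the annotated exons.

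The genes named were the members with all transcripts, from the pathway lists each gene with an unadjusted p under 0.05, Pex5l and the most abundant gene of each list, for each member the 5 genes most correlated with it, and the neighbours. Kcne2, Kctd3, Pde10a, Prkar2b and the single marker genes were named after their values were seen. Members and lists were chosen with earlier results of these data known. Alternatives tried were pseudocounts (0.01 and 1), a filter at 1 FPKM, no filter, quantile normalization, only the groups compared, the most abundant transcript for the gene, the replicate number as a block, and leaving out each library. Leaving out saline replicate 3 and CFA6D replicate 6 together was an alternative chosen after seeing the data.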

Additional observations from a re-analysis of the deposited data

How the results depend on the processing

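There were 3 pools a group and a saline group labelled day 3 only, and 0 of the HCN differences passed after adjustment in limma. Most of these differences were near the spread between pools. For Hcn4, CFA6D (3.49 ± 0.143 FPKM) was apart from saline (2.98 ± 0.209 FPKM) by more than the SD of either group. Groups of 3 were too small for a test of outlying samples. The higher Hcn4 on CFA3D kept its direction in all 18 alternatives and lost its call in 8, which were the fit with only the groups compared (0.56, SE 0.25), the fit without saline replicate 3 and CFA6D replicate 6 (0.55, SE 0.28) and 6 fits without 1 library. Without saline replicate 3 and CFA6D replicate 6, Hcn2 was past the cutoff on CFA3D (0.31, SE 0.11) and CFA6D (0.32, SE 0.12). In that fit the Hcn3 difference between the CFA days reversed to -0.015. The processed Hcn3 transcript (ENSMUST00000133368) on CFA3D reversed to -0.32 and the longer retained intron (ENSMUST00000132156) between the CFA days to -0.27. Between the CFA days 1 signalling gene was lower in place of 3 higher, where 4.45% of all gene sums were lower. With a pseudocount of 1, the processed transcript on CFA3D reversed to -0.037. Quantile normalization left 1 of the signalling genes on CFA3D and 6 on CFA6D, and it kept the direction of all 3 HCN gene sums in the 3 comparisons, with Hcn2 at 0.027 on CFA3D in place of 0.12, at 0.13 on CFA6D in place of 0.21, and Hcn3 between the CFA days at 0.080 in place of 0.05. In each of these cases the cause was not tested.

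Leaving out each library in turn gave ranges on the log2 scale. On CFA3D they were -0.043 to 0.31 for Hcn2, 0.09 to 0.30 for Hcn3 and 0.29 to 0.84 for Hcn4. On CFA6D they were 0.046 to 0.40, 0.14 to 0.48 and 0.18 to 0.28, and between the CFA days 0.0078 to 0.17, -0.077 to 0.26 and -0.62 to -0.067. The transcripts that reversed were the Hcn2 transcript on CFA3D (-0.043 to 0.31), the longer Hcn3 retained intron on CFA3D (-0.62 to 0.12), on CFA6D (-0.47 to 0.18) and between the days (-0.30 to 0.44), the processed Hcn3 transcript on CFA3D (-0.32 to 0.54) and the coding Hcn3 transcript between the days (-0.027 to 0.19). The signalling genes past the cutoff numbered 2 to 7 on CFA3D, 6 to 16 on CFA6D and 0 to 3 between the days. With all libraries, 4, 10 and 3 of 59 passed, where 4.45%, 11.1% and 7.39% of all gene sums did. The share of all gene sums in each fit without a library is not given here. The smallest counts came without saline replicate 2 or CFA3D replicate 2 or 3 on CFA3D (2 each), CFA6D replicate 6 on CFA6D and CFA3D replicate 1 or 2 between the days (0 each), and the largest on both days without saline replicate 1. The exact permutation p over the groups ran from 0.0321 (without saline replicate 3) to 0.793 for Hcn2, from 0.0286 (without CFA6D replicate 5) to 0.782 for Hcn3, from 0.00357 (without CFA3D replicate 3) to 0.286 for Hcn4 and from 0.3 to 0.925 for the Hcn2 share.

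Saline and CFA3D libraries carry the same replicate numbers. The deviations of same-numbered libraries from their group means correlated at 0.09, -0.08 and 0.03. Not every library correlated best with its own number. With 3 libraries a group, these values cannot tell whether same-numbered libraries share more than a number. With the replicate number as a replicate block, Hcn4 on CFA3D was 0.56 and passed the cutoff, and 495 of 16003 gene sums passed, against 602 without the block in the same libraries.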
